A study of Mus musculus with 6 samples.

Results

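Described here are 37 genes of blood endothelium, lymphatic endothelium and vessel growth, chosen by name from the 24063 gene symbols in the files. By role they comprise 13 genes of blood endothelial identity, 4 ligands of the vascular endothelial growth factor (VEGF) family, 5 VEGF receptors and co-receptors, 4 genes of the angiopoietin-Tie axis, 2 of the apelin axis, 2 of the PDGF-B axis, 3 lymphatic endothelial genes and 4 adhesion molecules that hold leukocytes at the vessel wall. Where a symbol had several transcript rows, the row with the highest mean count stood for the gene. All 37 genes were found, and all 37 passed the filter on low counts.

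RNA sequencing compared penile tumors of SA mice (3 samples) with penile epithelium of wild type (WT) mice (3 samples), all aged 5 months. The authors name epithelium, but the sample titles read WT penis, and how much underlying tissue was included is not stated. SA mice carry PB-Cre, a Cre transgene under an androgen-responsive promoter that is active in penile epithelium, and conditional alleles of 2 tumor suppressor genes (Smad4L/L ApcL/L). Their tumors arose spontaneously, with no carcinogen given. WT mice were C57BL/6, and no mice with Cre alone or with either single deletion were compared here. Tumor, genotype, the tissue taken and any difference in background strain therefore cannot be told apart. The SA tumors came from 3 mice. Nothing states whether the WT samples came from separate animals, so the p-values below measure the spread between these samples, which may in part be technical.

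Blood vessels are lined by endothelial cells that adhere to each other through molecules such as Pecam1, grow under VEGF acting on the receptor Kdr, and are steadied by pericytes and by angiopoietin acting on the receptor Tek. Lymphatic vessels depend on the transcription factor Prox1 and on Vegfc acting on Flt4. In inflamed tissue, endothelial cells of venules display selectins and Icam1, which slow and hold passing leukocytes. Penile tissue is rich in vessels, since erection depends on blood-filled spaces.

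Gene rows held 23828283 to 32871142 counts in 5 libraries and 110509147 counts in SA tumor 3, which is 4.42 times the median of the others. Levels are given as counts per 1000000 counts (CPM) after TMM normalization, a scaling between libraries, and 3 counts correspond to 0.0244 to 0.137 CPM at this depth. Of the targeted genes, Smad4 was at 39.6 ± 5.61 CPM in SA tumors and 67.8 ± 5.92 CPM in WT penises (mean ± SD, n = 3), and Apc was at 215 ± 33.4 and 79.6 ± 15.1 CPM. Conditional deletion removes only some exons and the counts cover the whole transcript, so the higher Apc count does not check the deletion. The endothelial label was met in every library: Cdh5, the cadherin of endothelial junctions, was at 44.6, 43.5 and 59.6 CPM in SA tumors 1 to 3 and at 54.6, 50.1 and 46.7 CPM in WT penises 1 to 3. Of the other endothelial markers, Cldn5 was lower in every SA tumor, at 9.03, 11.9 and 18.6 against 42.3, 24.2 and 22.01 CPM. Pecam1, given below, was lower in every SA tumor too.

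A promoter from RefSeq was at hand for 22 of the 37 genes, and 4 are shown because their genes frame the main contrasts below: Prox1 and Apln, which rose, and Selp and Sele, of which Selp rose and Sele did not pass the test. Each is the 250 bases before an annotated start in GRCm38.p6, the assembly of mm10, written 5′ to 3′ on the strand of the gene. Capitals mark AGGAAG, a core bound by ETS factors such as Erg, and CTTTGA, a core bound by TCF factors, on either strand. The TCF letters were added after values had been seen.
Prox1 promoter (chr1:190170828-190171077, minus strand): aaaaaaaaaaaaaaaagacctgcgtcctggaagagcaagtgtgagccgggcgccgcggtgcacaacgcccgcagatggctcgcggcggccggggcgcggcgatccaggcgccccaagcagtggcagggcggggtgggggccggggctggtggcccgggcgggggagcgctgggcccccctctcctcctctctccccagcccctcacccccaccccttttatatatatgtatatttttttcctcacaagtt
Apln promoter (chrX:48034854-48035103, minus strand): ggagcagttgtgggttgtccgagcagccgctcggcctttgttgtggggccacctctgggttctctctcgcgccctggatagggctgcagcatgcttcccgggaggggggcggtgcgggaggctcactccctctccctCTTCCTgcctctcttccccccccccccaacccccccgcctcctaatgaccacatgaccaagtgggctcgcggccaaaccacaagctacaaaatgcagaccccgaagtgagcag
Selp promoter (chr1:164115014-164115263, plus strand): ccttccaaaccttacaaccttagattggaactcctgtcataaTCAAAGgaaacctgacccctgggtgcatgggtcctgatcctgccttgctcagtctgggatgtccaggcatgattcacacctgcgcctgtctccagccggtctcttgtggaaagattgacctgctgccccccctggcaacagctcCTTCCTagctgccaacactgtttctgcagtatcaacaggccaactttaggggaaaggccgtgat
Sele promoter (chr1:164047984-164048233, plus strand): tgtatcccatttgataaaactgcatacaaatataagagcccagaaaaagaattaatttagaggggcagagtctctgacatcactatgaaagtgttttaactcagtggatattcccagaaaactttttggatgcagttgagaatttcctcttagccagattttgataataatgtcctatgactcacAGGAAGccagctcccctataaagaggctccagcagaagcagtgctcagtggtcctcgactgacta
The windows of Apln, Selp and Sele each held 1 ETS-like match, that of Selp also held 1 TCF-like match, and that of Prox1 held neither. Over all 32851 promoter windows of this length, 29.5% held AGGAAG and 13.8% held CTTTGA, against 12 and 4 of the 29 windows of these genes. The letters TATAAA were in 12.4% of all windows and in 4 of the 29. A longer NF-kappaB-like motif was in 4.11% of all windows and in 1 of the 29, and in none of the 4 windows shown. No matches in capitals overlapped. The Sele window precedes a start that lies inside the span annotated for the gene. These are counts of letters, not of bound sites.

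Among the 37 genes, 7 were higher and 10 were lower in SA tumors at an adjusted p-value under 0.01 (edgeR's quasi-likelihood test with Benjamini-Hochberg adjustment over 16336 genes), the threshold for "rose" and "fell" throughout. This is 18.9% and 27.0% of them, against 20.1% higher and 17.5% lower among all genes tested, so the share that rose was close to that of all genes. With a change of at least 4-fold as well, 5 were higher (13.5%, against 9.41% of all genes) and 0 were lower (against 3.59%). No gene fell by 4-fold with DESeq2 or limma-voom either, nor at an unadjusted p under 0.05, and 1 gene, Emcn, did without SA tumor 3 or without WT penis 3 (log2 fold changes of -2.06 and -2.07). The median log2 fold change of the 37 genes was -0.41, and that of all genes was 0.03. The genes that rose were Prox1, Aplnr, Selp, Apln, Pgf, Angpt1 and Icam1, and those that fell were Emcn, Flt1, Angpt2, Mmrn2, Lyve1, Esam, Thbd, Erg, Tie1 and Pecam1.

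The count of genes that fell depended on single libraries and on scaling, and that of genes that rose much less. It was 4 without SA tumor 2, 4 without WT penis 1, 4 without WT penis 2 and 16 without SA tumor 3, while the count of genes that rose lay between 7 and 10 in all 16 alternatives tried. With library totals alone in place of TMM, the median log2 fold change of all genes moved to 0.31, the calls over all genes went from 3283 higher and 2865 lower to 5248 and 1806, and those of these genes from 7 and 10 to 10 and 4. All 7 genes that rose kept their call in all 16 alternatives, and so did Emcn, Flt1, Mmrn2 and Thbd among those that fell.

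**Figure D1:**
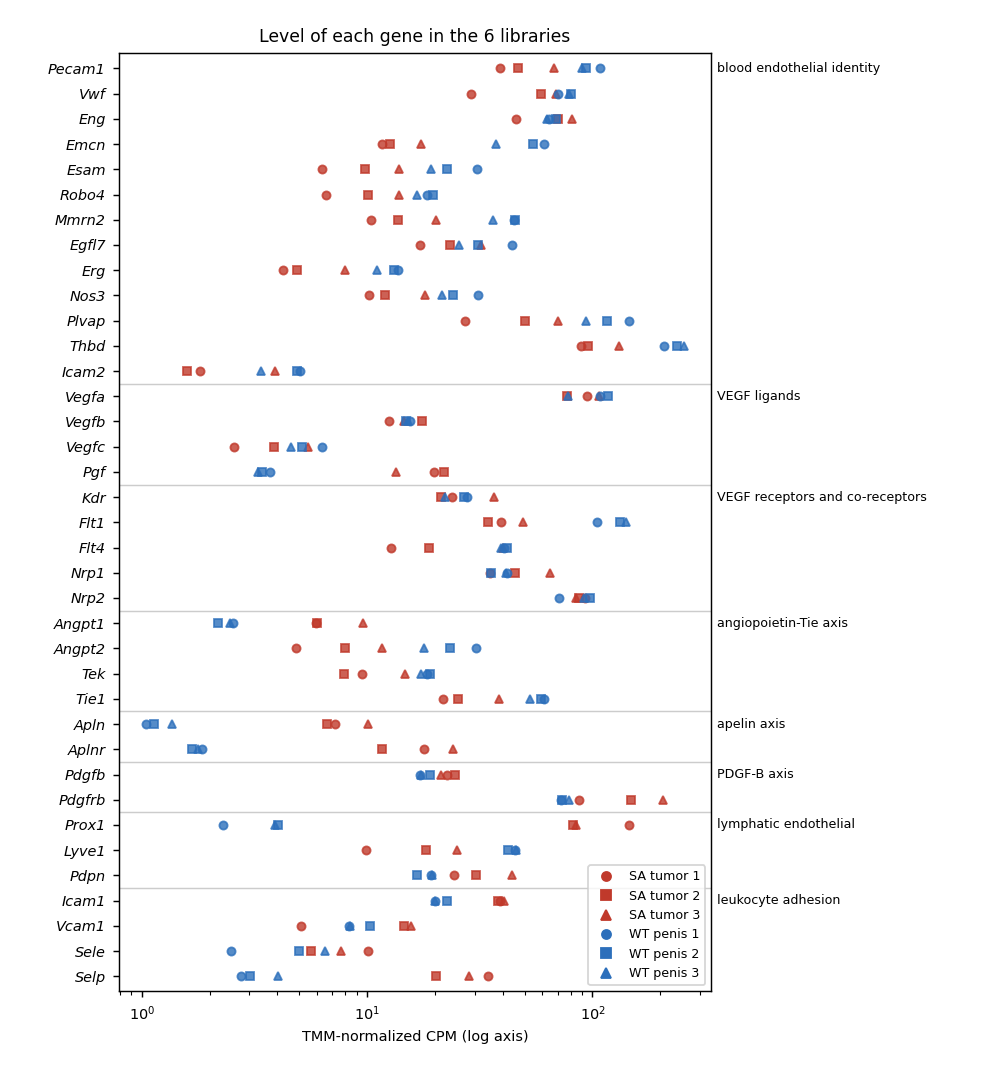
Level of each of the 37 genes in the 6 libraries, in TMM-normalized CPM on a log axis, by role. Red symbols are SA tumors and blue symbols WT penises, with 1 symbol shape per replicate number; all SA tumors lie above all WT penises for 10 genes, below them for 15, and the groups overlap for 12, while of all genes tested 32.7% lie above and 30.7% below.

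**Figure D2:**
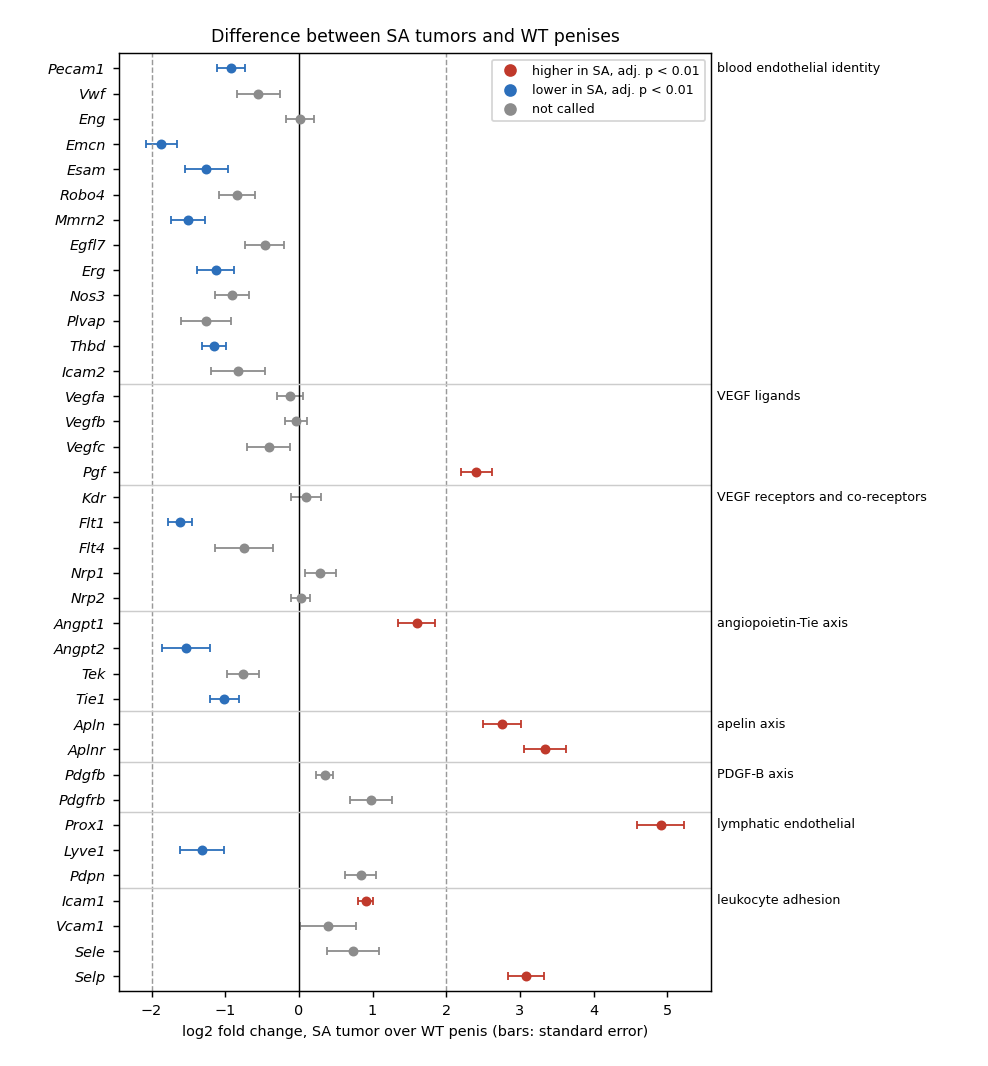
Log2 fold change of each gene, SA tumors over WT penises, with its standard error as bars. Red points are the 7 genes that rose, blue points the 10 that fell and grey points the 20 that did not pass the test, and the dashed lines mark a 4-fold change, which 5 genes exceed on the higher side and none on the lower.

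The genes of blood endothelial identity were lower or did not pass the test. Against 20.1% higher and 17.5% lower among all genes, 0 of these 13 rose, 6 fell (46.2%) and 7 did not pass. The median log2 fold change of the 13 was -0.92. None rose with DESeq2 or limma-voom, nor at an unadjusted p under 0.05. The largest fall was that of Emcn, endomucin, a sialomucin of capillary and venous endothelium (chromosome 3, 137341062 to 137431069), at 11.7, 12.6 and 17.3 CPM in SA tumors 1 to 3 and 60.7, 54.4 and 37.4 CPM in WT penises 1 to 3. Every SA tumor was below every WT penis, and the log2 fold change was -1.87 (SE 0.22, adjusted p = 0.000180). Mmrn2, a matrix glycoprotein that endothelial cells lay down, was at 10.4, 13.7 and 20.1 CPM in SA tumors and at 45.03, 45.3 and 36.1 CPM in WT penises, again with no overlap (log2 fold change -1.50, SE 0.23, adjusted p = 0.000819). Thbd, thrombomodulin, which turns thrombin toward anticoagulation, was at 88.9, 95.1 and 131 CPM against 207, 238 and 256 CPM (log2 fold change -1.15, SE 0.16, adjusted p = 0.000448). Thbd is also made by keratinocytes, and 6 of 9 keratinocyte markers fell as well (66.7%, against 17.5% of all genes). Their list had summed CPM of 26404 to 31152 in SA tumors and 70924 to 77254 in WT penises. The part of keratinocytes in the Thbd result was not tested.

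The other 3 that fell were Pecam1, Esam and Erg. Pecam1, the adhesion molecule at endothelial junctions, was at 38.9, 46.8 and 67.8 CPM in SA tumors and 108, 93.9 and 89.4 CPM in WT penises, a log2 fold change of -0.92 (SE 0.20, adjusted p = 0.00438). Esam, another junction molecule, was at 6.28, 9.83 and 13.9 against 30.6, 22.7 and 19.1 CPM (log2 fold change -1.26, SE 0.29, adjusted p = 0.00766). Erg, an ETS transcription factor that keeps endothelial identity, was at 4.24, 4.87 and 7.98 against 13.7, 13.1 and 11.1 CPM (log2 fold change -1.13, SE 0.25, adjusted p = 0.00514). None of these groups overlapped, but all 3 calls were lost when 1 of several libraries was left out. For Pecam1 the adjusted p was 0.0232 without SA tumor 2, 0.0218 without WT penis 1, 0.0139 without WT penis 2 and 0.0105 without WT penis 3, and for Esam it was 0.0322, 0.0309, 0.0221 and 0.0110 in the same order. For Erg it was 0.0227 without SA tumor 2, 0.0218 without WT penis 1 and 0.0182 without WT penis 2. With library totals alone none of the 3 was called, and Esam was not called with limma-voom, upper quartile scaling or a block for the replicate number.

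Of the 7 that did not pass, 4 lay lower in every SA tumor than in any WT penis, as did 30.7% of all genes tested. Plvap, a protein of the diaphragms of fenestrated endothelium, was at 27.3, 50.2 and 70.5 CPM in SA tumors and 146, 116 and 93.4 CPM in WT penises (log2 fold change -1.26, SE 0.34, adjusted p = 0.0193). Nos3, the endothelial nitric oxide synthase, whose product relaxes penile smooth muscle, was at 10.2, 12.1 and 18.1 against 30.9, 24.00 and 21.4 CPM and missed the threshold narrowly (log2 fold change -0.91, adjusted p = 0.0106). Robo4 and Vwf, a guidance receptor of endothelium and the clotting factor stored in it, had log2 fold changes of -0.84 and -0.55 (adjusted p = 0.0203 and 0.148). Without SA tumor 3, the adjusted p of Plvap was 0.00289, that of Nos3 was 0.00124 and that of Robo4 was 0.00239, and that of Plvap was 0.00539 without SA tumor 1. DESeq2 called all 3, limma-voom called Plvap, and Nos3 was also called with RLE scaling, without the filter and with SA tumor 3 thinned. Egfl7, a factor secreted by endothelium, Icam2 and Eng, the endothelial TGF-beta co-receptor, overlapped between the groups. Eng was at 45.7, 70.4 and 81.00 CPM in SA tumors and 63.9, 69.1 and 62.96 CPM in WT penises, and its log2 fold change of 0.01 (SE 0.19) changed sign in 8 of the 16 alternatives. Without SA tumor 3, Icam2 passed, with an adjusted p of 0.00364 and a log2 fold change of -1.38 in place of -0.82.

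SA tumors were not alike in these genes. SA tumor 3 was the highest of the SA tumors in 13 of the 13 identity genes and SA tumor 1 the lowest in 12, and over all 37 genes SA tumor 3 was the highest in 30 and SA tumor 1 the lowest in 23. How often each SA tumor was the highest or lowest over all genes was not counted, so this order is not shown to be particular to these genes. Genes of some other cell types ran in the same order and others did not. The summed CPM of 7 fibroblast markers was 1534, 3947 and 4998 in SA tumors 1 to 3, that of 4 erythrocyte markers 11.04, 45.5 and 113 and that of 6 leukocyte markers 103, 183 and 298. The sums of smooth muscle, macrophage and platelet markers were also lowest in SA tumor 1 and highest in SA tumor 3. Those of 4 other lists did not follow this order, at 26404, 31152 and 26717 for keratinocyte, 1738, 1426 and 2488 for granulocyte, 239, 224 and 312 for pericyte and 7.36, 5.07 and 5.69 for skeletal muscle markers. In WT penises the fibroblast, erythrocyte and leukocyte sums were 6409.8, 6192 and 6466, 166, 143 and 107 and 102, 71.8 and 65.97. The part of tissue composition in the level of the endothelial genes was not tested, and in bulk tissue fewer endothelial cells and less RNA per endothelial cell cannot be told apart. Smooth muscle, which surrounds vessels and blood spaces, was lower in all 9 of its markers, against 17.5% of all genes. Its median log2 fold change was -4.37, and its summed CPM was 106, 182 and 229 in SA tumors and 2188, 1873 and 2469.7 in WT penises. Each of the smooth muscle markers remained above 3 counts in every SA tumor.

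A list of 12 endothelial core genes outside the 37 moved less than the identity genes. Its median log2 fold change was -0.23, with 1 gene higher, Ecscr (log2 fold change 0.74), and 2 lower, Rasip1 (-0.72) and Ushbp1 (-1.34). The list thus had 8.33% higher and 16.7% lower, against 20.1% and 17.5% of all genes. Its summed CPM was 189.6, 212 and 307 in SA tumors 1 to 3 and 298, 269.7 and 243 in WT penises 1 to 3, so the groups overlapped. All 3 calls were lost when 1 of several libraries was left out, with adjusted p-values up to 0.0248 for Ecscr, 0.0319 for Rasip1 and 0.0302 for Ushbp1, and the list had 0 lower calls without SA tumor 2, WT penis 1 or WT penis 2 and 5 without SA tumor 3. Cdh5 differed by -0.03 on the log2 scale (SE 0.14, adjusted p = 0.861). Cldn5, of the same list, lay lower in every SA tumor than in any WT penis without passing (log2 fold change -1.15, SE 0.33, adjusted p = 0.0227).

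Taking the mean log2 CPM of these 12 genes away within each library gives the level of a gene relative to other endothelial transcripts. On this log2 scale, 11 of the 37 genes were above in every SA tumor, 15 were below and 11 overlapped, and of all genes tested 30.8% were above and 14.3% below. Pecam1 stood at 1.70, 1.76 and 1.73 in SA tumors and 2.38, 2.34 and 2.45 in WT penises, so that it was lower relative to the core genes in every tumor. Emcn stood at -0.04, -0.12 and -0.23 against 1.55, 1.55 and 1.19, and Tie1 at 0.85, 0.88 and 0.92 against 1.56, 1.67 and 1.69. The SA tumors lay closer to each other on this scale than in log2 CPM for these genes. With Pecam1 alone as the reference, 20 genes were above, 6 below and 11 overlapped, against 70.8% of all genes above and 6.21% below. With 18 other blood endothelial genes 10 were above, 18 below and 9 overlapped, against 27.5% and 18.9% of all genes. The choice of reference therefore set how many genes fell on each side.

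**Figure D3:**
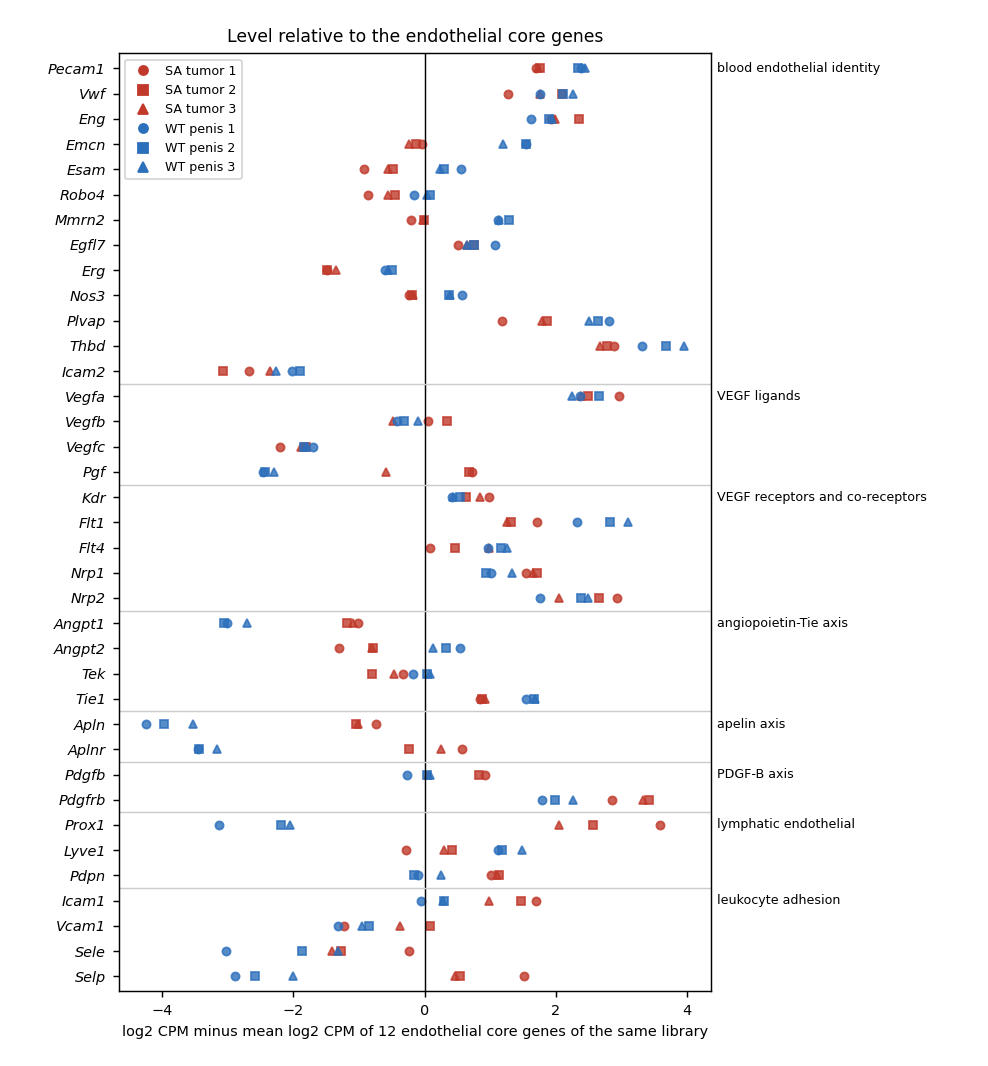
Level of each gene relative to 12 endothelial core genes, as log2 CPM minus the mean log2 CPM of the core genes in the same library, for SA tumors (red) and WT penises (blue). The 3 SA tumors lie together and below the WT penises for Pecam1, Emcn, Mmrn2 and Tie1, and above them for Prox1, Aplnr, Apln, Pgf, Angpt1 and Selp.

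Of the 4 VEGF ligands, Pgf alone rose (25.0%, against 20.1% of all genes) and 0 fell (against 17.5%). Pgf, placental growth factor, a ligand of Flt1 (chromosome 12, 85166637 to 85177785), was at 19.8, 21.98 and 13.5 CPM in SA tumors 1 to 3 and at 3.71, 3.40 and 3.28 CPM in WT penises 1 to 3. Every SA tumor was above every WT penis by a wide margin, SA tumor 3 was the lowest tumor here, and the mean was 5.32-fold higher (log2 fold change 2.41, SE 0.21, adjusted p = 4.03e-05). Vegfa, the main ligand of Kdr, was at 94.4, 77.4 and 107 CPM in SA tumors and 108, 117 and 77.5 CPM in WT penises, with overlap and a log2 fold change of -0.12 (SE 0.18, adjusted p = 0.601). Vegfb, another Flt1 ligand, and Vegfc, the lymphatic ligand of Flt4, overlapped as well, with log2 fold changes of -0.04 (SE 0.15) and -0.41 (SE 0.29). With library totals alone the log2 fold change of Vegfa was 0.17 and that of Vegfb was 0.25, so neither sign was fixed. Vegfa has 9 transcript rows that share most reads, so its splice forms could not be told apart.

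Of the 5 receptors and co-receptors, 1 fell (20.0%, close to the 17.5% of all genes), 0 rose (against 20.1%) and 4 did not pass. Flt1, a high-affinity VEGF receptor that binds Vegfa, Vegfb and Pgf (chromosome 5, 147561604 to 147726438), was at 39.3, 34.5 and 48.9 CPM in SA tumors and at 104, 132 and 141 CPM in WT penises. No SA tumor reached the lowest WT penis, and Flt1 was 3.08-fold lower (log2 fold change -1.62, SE 0.16, adjusted p = 7.95e-05). Flt1 has 1 transcript row, so its membrane form and its soluble form, which traps ligand, could not be told apart. Kdr, the main signaling receptor for Vegfa, was at 23.7, 21.3 and 36.5 CPM in SA tumors and 27.7, 26.9 and 22.2 CPM in WT penises, and the groups overlapped (log2 fold change 0.09, SE 0.21, adjusted p = 0.729). Its sign changed without SA tumor 3, at -0.18, and without WT penis 3, at -0.02. Nrp1 and Nrp2, co-receptors for VEGF and semaphorins, had log2 fold changes of 0.29 (SE 0.21) and 0.02 (SE 0.13) and overlapped between the groups. Flt4, the receptor for Vegfc, is described with the lymphatic genes.

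Because gene length differs, levels of different genes were compared by the deposited TPM, which is per length. The TPM ratio of Flt1 to Kdr was 1.44, 1.41 and 1.16 in SA tumors 1 to 3 and 3.28, 4.27 and 5.53 in WT penises 1 to 3. Against its ligand Pgf, Flt1 had a TPM ratio of 0.504, 0.400 and 0.924 in SA tumors and 7.17, 9.89 and 10.97 in WT penises. In SA tumors the ligand transcript thus exceeded the receptor transcript in all 3 libraries, and in WT penises the receptor exceeded the ligand in all 3. The ratio of Vegfa to Pgf was 2.15, 1.59 and 3.60 in SA tumors and 13.2, 15.6 and 10.7 in WT penises, so Vegfa remained the more abundant ligand per length in every library. These ratios, like the other pairs below, were chosen after values had been seen and carry no test.

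The angiopoietin ligands moved in opposite directions. Angpt1, which activates Tek and is made mainly by cells around the vessel (chromosome 15, 42424667 to 42676977), was at 5.91, 6.03 and 9.58 CPM in SA tumors and 2.53, 2.17 and 2.46 CPM in WT penises, and all tumors were above all WT penises (log2 fold change 1.60, SE 0.25, adjusted p = 0.000908). Angpt2, which is made by endothelium and can oppose Angpt1 at Tek (chromosome 8, 18690263 to 18741562), was at 4.83, 7.95 and 11.6 CPM in SA tumors and 30.3, 23.3 and 17.8 CPM in WT penises (log2 fold change -1.53, SE 0.32, adjusted p = 0.00512). Here all tumors were below all WT penises, but the adjusted p was 0.0254 without SA tumor 2, 0.0214 without WT penis 1 and 0.0185 without WT penis 2. The TPM ratio of Angpt2 to Angpt1 was 0.991, 1.60 and 1.47 in SA tumors 1 to 3 and 14.5, 12.99 and 8.77 in WT penises 1 to 3, with no overlap. Tie1, a receptor without a ligand of its own that pairs with Tek, was at 21.6, 25.4 and 38.4 CPM in SA tumors and 61.1, 59.2 and 52.8 CPM in WT penises (log2 fold change -1.01, SE 0.20, adjusted p = 0.00320). Its adjusted p was 0.0182 without SA tumor 2, 0.0162 without WT penis 1 and 0.0129 without WT penis 2. With library totals alone neither Angpt2 nor Tie1 was called, and Angpt2 was also not called with a block for the replicate number. Tek itself was lower in every tumor, with a log2 fold change of -0.76 (SE 0.22), and did not pass (adjusted p = 0.0197), except with DESeq2 and without SA tumor 3 (the latter at 0.000650). Tie1 and Tek kept a TPM ratio that overlapped between the groups.

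Both genes of the apelin axis rose by more than 4-fold, as did 9.41% of all genes tested. Apln, the peptide ligand apelin, which sprouting endothelial cells make (chromosome X, 48025146 to 48034853), was at 7.17, 6.65 and 10.05 CPM in SA tumors 1 to 3 and 1.04, 1.13 and 1.37 CPM in WT penises 1 to 3. Aplnr, its receptor (chromosome 2, 85136360 to 85139923), was at 17.8, 11.7 and 24.2 CPM in SA tumors and 1.85, 1.67 and 1.78 CPM in WT penises. All tumors lay above all WT penises for both, with mean levels 6.74-fold and 10.1-fold higher. The log2 fold changes were 2.76 for Apln (SE 0.25, adjusted p = 4.94e-05) and 3.35 for Aplnr (SE 0.29, adjusted p = 3.34e-05). Relative to the endothelial core genes, Aplnr was at 0.57, -0.24 and 0.25 in SA tumors and -3.45, -3.44 and -3.17 in WT penises on the log2 scale. Between receptor and ligand, the TPM ratio of Aplnr to Apln overlapped, at 2.19, 1.55 and 2.12 in SA tumors and 1.57, 1.30 and 1.15 in WT penises. In WT penises Apln and Aplnr had the lowest mean TPM of the 37 genes.

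Apelin is one of the genes that mark tip cells, the leading cells of a sprout, and 11 other genes of tip cells and sprouting were read beside it. Of these, 6 rose (54.5%) and 0 fell, against 20.1% and 17.5% of all genes. The median log2 fold change of the 11 was 0.80. At an unadjusted p under 0.05, 7 were higher and 0 lower, and neither DESeq2 nor limma-voom called any lower. Cxcr4, a chemokine receptor, had the largest change, from 0.995, 1.10 and 1.18 CPM in WT penises to 30.9, 22.6 and 30.3 CPM in SA tumors (log2 fold change 4.67, adjusted p = 1.90e-06). Cxcr4 is also a gene of leukocytes, and 5 of 5 granulocyte markers tested rose too, against 20.1% of all genes. Their summed CPM was 1426 to 2488 in SA tumors and 56.6 to 120.2 in WT penises. The part of granulocytes in the Cxcr4 result was not tested. Esm1, a secreted proteoglycan of tip cells named here after its values were seen, was at 2.08, 3.28 and 2.27 against 0.407, 0.401 and 0.319 CPM (log2 fold change 2.74, adjusted p = 0.000208). Efnb2, an ephrin of arterial endothelium, had the smallest log2 fold change of the 6 (0.80) and was not called without WT penis 2 (adjusted p = 0.0124), where 3 of the list rose. The calls of Kcne3 and Hey1, named here after their values were seen, were kept in 1 and 3 of 6 leave-one-out fits (adjusted p up to 0.03675 and 0.0207). Jag1, a Notch ligand, overlapped between the groups. Which cells carried the transcripts of this list was not tested.

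For the PDGF-B axis, neither gene passed in edgeR (both had an unadjusted p under 0.05, DESeq2 called Pdgfrb, limma-voom called neither, and both were called with library totals alone), and all tumors were above all WT penises for both. Pdgfb, which endothelium uses to recruit pericytes, was at 22.7, 24.6 and 21.2 CPM in SA tumors and 17.2, 19.1 and 17.3 CPM in WT penises (log2 fold change 0.35, SE 0.12, adjusted p = 0.0327). Pdgfrb, its receptor on pericytes and fibroblasts, was at 86.9, 148 and 206 CPM in SA tumors and 72.2, 73.5 and 78.5 CPM in WT penises, and SA tumor 1 was close to the WT level (log2 fold change 0.98, SE 0.28, adjusted p = 0.0214). Without SA tumor 1 the adjusted p was 0.000213, and the log2 fold change was 1.24. The order of Pdgfrb over the SA tumors was that of the fibroblast markers given above. Of 7 pericyte markers, 1 rose, Kcnj8 (log2 fold change 1.18), and 3 fell, Cspg4 (-1.77), Notch3 (-0.90) and Ndufa4l2 (-2.31). This is 14.3% and 42.9% of them, against 20.1% and 17.5% of all genes. Rgs5 was at 17.9, 12.2 and 23.4 CPM in SA tumors and 7.23, 7.38 and 12.8 CPM in WT penises. The groups overlapped, and Rgs5 did not pass (log2 fold change 0.97, adjusted p = 0.0242). Abcc9 (0.34) and Higd1b (-0.11), named here after their values were seen, did not pass either. With DESeq2, 2 of the list rose and 3 fell. The Kcnj8 call was kept without SA tumor 1 and lost without each of the other libraries, with an adjusted p of up to 0.0277. The summed CPM of the pericyte list was 224 to 312 in SA tumors and 595 to 767 in WT penises. In this sum the highest WT means were those of Ndufa4l2, Notch3 and Cspg4, the genes that fell. They were at 298, 230 and 114 CPM in WT penises and 59.9, 123 and 33.4 CPM in SA tumors. Per length, Pdgfrb stood to Pecam1 at a TPM ratio of 1.36, 1.94 and 1.86 in SA tumors and 0.407, 0.478 and 0.536 in WT penises.

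The largest change of all 37 genes was that of Prox1, while of the other lymphatic genes among the 37 Lyve1 fell and Pdpn did not pass the test. Prox1, the transcription factor that sets lymphatic endothelial fate and that liver, lens and neural cells also use (chromosome 1, 190118035 to 190170827), was at 145, 81.97 and 84.4 CPM in SA tumors 1 to 3 and at 2.31, 4.04 and 3.92 CPM in WT penises 1 to 3. SA tumor 1, the lowest tumor in most endothelial genes, was the highest in Prox1, and no tumor came near a WT penis. The mean was 104 ± 35.8 CPM against 3.42 ± 0.968 CPM (± SD, n = 3), 30.4-fold higher. The log2 fold change was 4.91 (SE 0.32, adjusted p = 1.72e-05) and lay between 4.59 and 5.19 over the 16 alternatives. By mean TPM, Prox1 was rank 4 of the 37 genes in SA tumors and rank 34 in WT penises. An antisense gene, Prox1os, overlaps the start of Prox1 in GENCODE vM21. The library protocol was stranded, but whether the counting used strand is not stated, so reads of the pair could not be told apart here.

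Lyve1, a hyaluronan receptor of lymphatic endothelium and of some macrophages, was at 9.85, 18.3 and 24.98 CPM in SA tumors and 45.4, 42.3 and 45.7 CPM in WT penises. All tumors were below all WT penises, with the lowest in SA tumor 1 (log2 fold change -1.31, SE 0.29, adjusted p = 0.00702). The call was lost without SA tumor 2 (adjusted p = 0.0280), WT penis 1 (0.0293), WT penis 2 (0.0220) or WT penis 3 (0.0285), with direction kept. It was also lost with upper quartile scaling, with library totals alone and without the filter. Of 6 macrophage markers, 1 fell (16.7%, against 17.5% of all genes), Cd163. Its log2 fold change was -1.57, with an adjusted p of up to 0.0125 without WT penis 1 or 3. Of the list 0 rose (against 20.1% of all genes), nor did any rise with DESeq2, limma-voom or at an unadjusted p under 0.05, but 1 did without SA tumor 1. The summed CPM of the list was 94.0 to 234 in SA tumors and 152 to 211 in WT penises. The part of macrophages in the Lyve1 result was not tested. Pdpn, podoplanin, a mucin of lymphatic endothelium and also of fibroblasts and basal keratinocytes, was at 24.2, 30.4 and 44.02 CPM in SA tumors and 19.3, 16.6 and 19.5 CPM in WT penises. All tumors were above all WT penises, and the adjusted p of 0.01001 lay just past the threshold (log2 fold change 0.84, SE 0.21). Pdpn was called higher in 8 of the 16 alternatives, among them DESeq2, each of the 3 other scalings and the fit without SA tumor 1 (0.00166), and limma-voom did not call it. Flt4 was at 12.7, 18.9 and 40.3 CPM in SA tumors and 40.6, 41.8 and 39.2 CPM in WT penises. SA tumor 3 alone reached the WT level, the log2 fold change was -0.74 (SE 0.39, adjusted p = 0.153), and without SA tumor 3 it was -1.35 with an adjusted p of 0.000460.

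The TPM ratio of Prox1 to Lyve1 was 9.29, 2.82 and 2.13 in SA tumors 1 to 3, while it lay between 0.0320 and 0.0602 in WT penises. Of 5 more lymphatic genes tested, 0 rose and 1 fell (20.0%), against 20.1% and 17.5% of all genes. The median log2 fold change of the 5 was -1.24. None rose with DESeq2 or limma-voom, nor at an unadjusted p under 0.05. Nr2f2, a transcription factor of venous and lymphatic endothelium that works with Prox1, was the gene that fell, at 16.4, 17.8 and 23.9 CPM in SA tumors and 36.2, 39.1 and 37.2 CPM in WT penises (log2 fold change -0.95, SE 0.15, adjusted p = 0.00104). Mmrn1, Reln and Foxc2, named here after their values were seen, were below every WT penis in every tumor without passing, with log2 fold changes of -1.25, -1.24 and -1.24. The number that fell was 2 without SA tumor 1 and 3 without SA tumor 3. Ccl21a, a chemokine of lymphatic endothelium, had at most 0.0334 CPM in any library and was not tested. It has near-identical copies, whose shared reads the counting may have left out, so its level is uncertain.

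**Figure D4:**
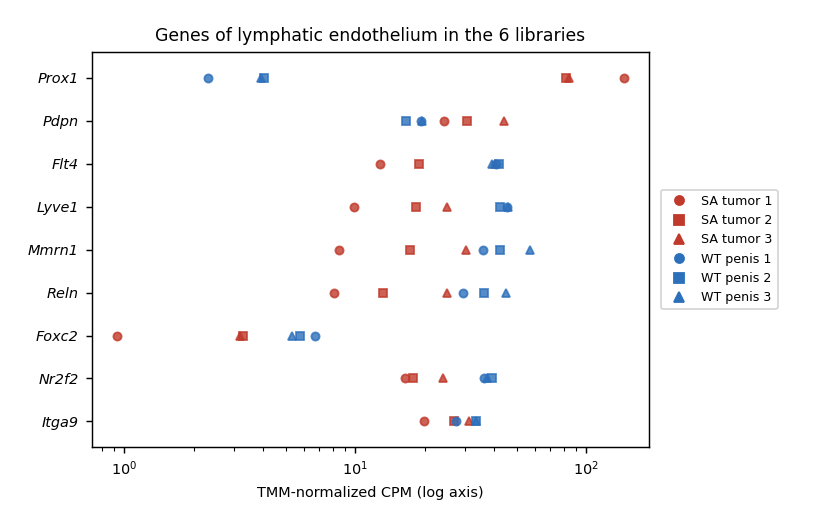
Genes of lymphatic endothelium in SA tumors (red) and WT penises (blue), in TMM-normalized CPM on a log axis. Prox1 lies between 82.0 and 145 CPM in SA tumors and between 2.31 and 4.04 CPM in WT penises, whereas Lyve1, Mmrn1, Reln, Foxc2 and Nr2f2 are below every WT penis in all 3 SA tumors. The Flt4 symbol of SA tumor 3 lies under those of the WT penises.

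Of the 4 adhesion molecules, Selp and Icam1 rose and none fell, by edgeR, DESeq2, limma-voom or an unadjusted p under 0.05. Selp, P-selectin, which starts the rolling of leukocytes and is stored in endothelium and platelets (chromosome 1, 164115264 to 164150026), was at 34.5, 20.1 and 28.2 CPM in SA tumors and 2.76, 3.04 and 4.01 CPM in WT penises. All tumors were above all WT penises, the mean was 8.45-fold higher, and the log2 fold change was 3.08 (SE 0.24, adjusted p = 2.12e-05). Icam1, a ligand of leukocyte integrins on endothelium, leukocytes and stimulated keratinocytes (chromosome 9, 21015940 to 21028814), was at 38.9, 38.3 and 40.4 CPM in SA tumors and 20.03, 22.7 and 19.9 CPM in WT penises. Its replicates lay very close together, at 39.2 ± 1.09 and 20.9 ± 1.56 CPM (mean ± SD, n = 3), and the log2 fold change was 0.91 (SE 0.10, adjusted p = 0.000166). Vcam1, the ligand of integrin alpha 4, was at 5.09, 14.5 and 15.6 CPM in SA tumors and 8.27, 10.3 and 8.38 CPM in WT penises. SA tumor 1 lay below all WT penises and the other tumors above them, with a log2 fold change of 0.40 (SE 0.38, adjusted p = 0.408), and 0.74 without SA tumor 1 (adjusted p = 0.00584).

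Sele, E-selectin, was at 10.1, 5.66 and 7.66 CPM in SA tumors and 2.49, 5.01 and 6.52 CPM in WT penises, with overlap of SA tumor 2 and WT penis 3 (log2 fold change 0.74, SE 0.35, adjusted p = 0.110). The TPM ratio of Selp to Sele was 2.89, 3.01 and 3.12 in SA tumors and 0.939, 0.514 and 0.521 in WT penises, so the order of the selectins was the reverse in the groups. Both genes lie on chromosome 1, Sele at 164039614 to 164058487 and Selp at 164115264 to 164150026. Since Selp is also a platelet gene, platelet markers are given beside it. Of 4 tested, 1 rose, Ppbp (25.0%, against 20.1% of all genes), and 0 fell (against 17.5%). Ppbp was at 16.8, 16.6 and 30.5 CPM in SA tumors and 1.63, 0.868 and 0.592 CPM in WT penises (log2 fold change 4.39). Pf4 was at 3.79, 8.28 and 12.1 CPM in SA tumors and 17.4, 11.05 and 10.5 CPM in WT penises. Pf4, Itga2b and Gp1ba, the last named after its value was seen, did not pass, with log2 fold changes of -0.67, -0.46 and -0.25. The summed CPM of the list, Ppbp included, was 25.6 to 52.3 in SA tumors and 21.2 to 30.0 in WT penises. Gp9 had at most 0.167 CPM in any library and was not tested. The part of platelets in the Selp result was not tested.

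Partners of these molecules on leukocytes and endothelium went both ways. Of 11 tested, 2 rose and 2 fell (18.2% each), close to the 20.1% and 17.5% of all genes. With DESeq2 6 rose and 2 fell, and with limma-voom 1 and 2. The median log2 fold change of the list was 0.91. The 7 that did not pass are named here after their values were seen. Itgb2, Itgam, Itga4 and Itgb1 were above every WT penis in every tumor (log2 fold changes 1.58, 1.19, 0.91 and 0.24). Jam3 was below (-0.72), and Selplg (0.95) and Itgb7 (0.45) overlapped. Of all genes tested, 32.7% lay above in this way and 30.7% below. Itgal, a subunit of the integrin that binds Icam1, was at 5.54, 7.75 and 17.2 CPM in SA tumors and 3.48, 2.80 and 1.87 CPM in WT penises (log2 fold change 1.92, adjusted p = 0.00780). Jam2, an endothelial junction molecule, rose by 1.27 on the log2 scale, F11r, a junction molecule of epithelium and endothelium, fell (-0.67), and Ackr1, a chemokine-binding protein of venules, fell (-1.38). Itgal was not called without SA tumor 2 or any one of the WT penises (adjusted p up to 0.0364), and the number of the list that rose was 5 without SA tumor 1 and 1 without SA tumor 2 or any one of the WT penises. Of 6 leukocyte markers 1 rose, Cd53 (log2 fold change 1.58), and 0 fell. This is 16.7% and 0.0%, against 20.1% and 17.5% of all genes. With DESeq2 5 rose and with limma-voom 0, and 6 were higher at an unadjusted p under 0.05. The median log2 fold change of the 6 was 1.29. The number that rose was 6 without SA tumor 1, 2 without SA tumor 3 and 0 without any one of the other libraries. Their summed CPM was 103 to 298 in SA tumors and 66.0 to 102 in WT penises. The part of leukocytes in the Icam1 result was not tested.

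**Figure D5:**
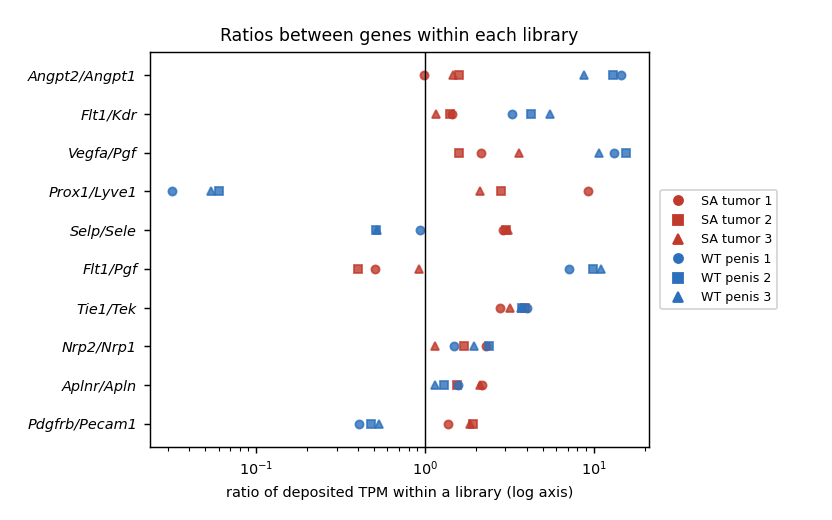
Ratios between 2 genes within a library, from the deposited TPM, on a log axis, for SA tumors (red) and WT penises (blue). The groups are apart for 7 of the 10 pairs and overlap for Tie1/Tek, Nrp2/Nrp1 and Aplnr/Apln; the vertical line marks equal TPM.

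Among the 18 further blood endothelial genes, 3 rose (16.7%) and 4 fell (22.2%), against 20.1% and 17.5% of all genes. The median log2 fold change of the list was -0.27. Fabp4, a fatty acid-binding protein of capillary endothelium, fat cells and macrophages, rose from 3.03, 3.44 and 4.46 CPM in WT penises to 122, 132 and 125 CPM in SA tumors (log2 fold change 5.11, adjusted p = 6.54e-07), and Gpihbp1 and Notch4 rose by 2.28 and 1.00 on the log2 scale. Cav1, the coat protein of caveolae, which endothelium shares with many cells, had the largest fall of the list (log2 fold change -2.28, adjusted p = 3.79e-06), and Cd34, Ramp2 and Gpr116 had log2 fold changes of -2.11, -1.72 and -1.03. The calls of Notch4 and Gpr116 were each kept in 1 of 6 leave-one-out fits (adjusted p up to 0.0459 and 0.0313), and that of Ramp2 was lost without SA tumor 2 (0.0105). The number that fell was 2 without SA tumor 2 and 8 without SA tumor 3.

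Ligands and receptors that share the VEGF co-receptors showed both directions. Of 13, 3 rose (23.1%) and 5 fell (38.5%), against 20.1% and 17.5% of all genes. Figf, the VEGF ligand also called Vegfd, fell from 31.8, 35.6 and 36.9 CPM in WT penises to 2.34, 9.07 and 11.2 CPM in SA tumors (log2 fold change -2.18, SE 0.49, adjusted p = 0.00976), a call lost without SA tumor 2 or any one of the WT penises (up to 0.0403). Plxna4, a plexin that pairs with Nrp1, rose (2.01), and so did Plxna1 (0.85). Of 12 other angiogenic factors, 3 rose, Ptn (3.80), Mdk (2.11) and Pdgfa (1.20), and 1 fell, Edn1, the vessel-constricting peptide endothelin (-2.19), with 2 lower without WT penis 1. Of 7 inhibitors of angiogenesis, 3 rose, Thbs2 (3.36), Vash1 (1.75) and Col18a1, the source of endostatin (1.08), and 1 fell, Timp3 (-1.30), a call lost without SA tumor 2 or any one of the WT penises (adjusted p up to 0.0354). Of 7 coagulation genes of the vessel wall, Plat, the tissue plasminogen activator, rose (1.42) and F3, tissue factor, fell (-2.69). These values are log2 fold changes, and genes other than the extreme ones of each list were named after their values were seen. Of the other angiogenic factors 25.0% rose and 8.33% fell, of the inhibitors 42.9% and 14.3%, and of the coagulation genes 14.3% each way. Over all genes tested 20.1% rose and 17.5% fell.

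Per length, the order of the 37 genes changed between the groups among the genes that rose and among those that fell. Prox1 was at rank 34 in WT penises and rank 4 in SA tumors, Pgf at 31 and 13, Flt1 at 7 and 20 and Emcn at 3 and 14, while Angpt1, which rose, was at 35 and 37. Thbd had the highest mean TPM in both groups, at 42.8, 43.8 and 64.04 in SA tumors 1 to 3 and 71.4, 89.2 and 99.2 in WT penises 1 to 3. In SA tumors the next were Pdgfrb, at 28.7, 46.9 and 69.5, Vegfa, at 47.8, 37.5 and 55.4, and Prox1, at 62.8, 33.9 and 37.2 TPM. The spread among the SA tumors spans these 4 genes, so their order among themselves was not resolved. In WT penises Plvap, Emcn, Pecam1 and Vegfa followed Thbd, at 92.4, 80.6 and 66.8, 53.1, 51.97 and 36.9, 41.99, 39.6 and 39.02 and 39.2, 46.3 and 31.7 TPM, of which Plvap was above Emcn in every library and overlapped with Thbd, and the other 3 overlapped with each other. Of the 12 genes with more than 1 transcript row, none had a row whose share of the reads separated the groups.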

How the data were processed

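RNA from 3 SA tumors and 3 WT penises was sequenced as stranded 76-nt read pairs. Per the authors, TopHat placed the reads on mm10 and HTSeq did the counting (versions are not given in the sources used here). They deposited raw counts per RefSeq transcript, without normalization. The FPKM values the authors deposited were not used. The TPM values the authors deposited, which sum to 1000000 per sample, served only for levels between genes.

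The analysis of these counts ran edgeR 4.0.16 under R 4.3.3. Of the 24063 symbols, 4914 had more than 1 row, and the row with the highest mean count was used. Genes were kept by filterByExpr (at least 3 samples above a level worth 10 counts in a library of median size), which left 16336. Libraries were scaled by TMM, and SA was compared with WT by edgeR's robust quasi-likelihood test, adjusted after Benjamini and Hochberg over all genes. Calls used the study's thresholds: 0.01 for the adjusted p-value and, where named, 4-fold for the change. The standard error is the log2 fold change divided by the square root of F. An exact permutation test of 3 against 3 cannot go below p = 0.10. Log CPM used a prior count of 2. The script was tested on simulated data.

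The groups and replicates come from the labels, and no 2 libraries were alike within sampling noise. The genes, the other lists and the thresholds were chosen with earlier results of these data known. All 37 genes are named. From each other list, at most 4 were to be named, by mean level, by largest and smallest change, and as markers, and a gene of 1 list is not reported here. Alternatives were DESeq2 1.42.0, limma-voom (limma 3.58.1), 3 other scalings, no filter, a block for the replicate number, other rows per symbol, thinning SA tumor 3 to 25016259 counts, and leaving out each library. The floors cover counting error only, whereas the standard errors also take in the spread between samples. Gene positions, promoters and synonyms were taken from RefSeq (GRCm38.p6), which matched all 37 genes.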

Additional observations from a re-analysis of the deposited data

How the results depend on the processing

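Of 592 log2 fold changes of single genes under the 16 alternatives, 515 kept their direction and side of the threshold, 28 gained a call, 33 lost one and 16 changed sign, the last all among genes that did not pass. The number of genes that fell, 10, was 4 with library totals only and 4 to 16 when 1 library was left out, and that of genes that fell at least 4-fold, 0, was 0 to 1. The numbers that rose, 7 and 5, kept within 7 to 10 and at 5. The log2 fold change of Eng was -0.0019 with DESeq2, -0.0195 with limma-voom, -0.0283 with a replicate block and -0.0157 with SA tumor 3 thinned, and -0.168 to 0.209 with 1 library left out. The log2 fold change of Vegfa was 0.172 with library totals only. The log2 fold change of Vegfb was 0.0222 with upper quartile scaling, 0.246 with library totals only and -0.172 to 0.0629 with 1 library left out. Leaving out 1 library gave -0.184 to 0.239 for Kdr and -0.112 to 0.0967 for Nrp2. Relative to Pecam1 in place of the core genes, 8 differences changed sign, to 0.0512 for Robo4, 0.015 for Nos3, 0.0142 for Icam2 and 0.141 for Tek, whose groups had been apart, and to 0.3143 for Vwf, 0.4785 for Egfl7, 0.4801 for Vegfc and 0.0353 for Flt4, whose groups had overlapped. Pecam1 itself differed by -0.66 relative to the core genes, so taking it as the reference shifts the difference of every gene upward by that same amount. The causes of the other changes were not tested.

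Deviations from the group means had correlations of -0.13, -0.10 and 0.02 between samples with the same number. Between samples with different numbers they ran from -0.15 to 0.21. Deviations within a group depend on each other, so these values cannot decide whether the numbers pair the samples. With the replicate block, 8 genes rose and 8 fell, and over all genes 2809 rose and 2446 fell, against 3283 and 2865. With 3 samples a group, a p-value that misses the threshold does not show that levels were equal, and counts could not resolve splice forms or cell types.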
